A study of Homo sapiens with 6 samples.

Results

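Connexins are the proteins of gap junctions, the clusters of channels through which neighbouring cells exchange ions and small molecules. Their RNA was measured by sequencing the total RNA of HaCaT, a line of human keratinocytes that grows without limit in culture. The genes described here are GJA1, GJB2, GJB5, GJB6 and GJC1, chosen by name with their values in these libraries already known. Of the 5, 4 were among the 27988 named genes with a value in the libraries, and GJB6 was not. A gene's level is the sum over its annotated transcripts of TPM, an abundance unit scaled for transcript length and library total.

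The comparison set 3 libraries against 3. The PSENEN siRNA cells had been transfected with 100 pmol of an siRNA against PSENEN, and the mismatch siRNA cells with a mismatch siRNA. The amount of mismatch siRNA is not known from the sources used. All 6 libraries came from HaCaT cells transfected with a lipid reagent in high glucose medium with 10% serum. The labels give 48 h and 72 h as the times of RNA collection, and which of them was sequenced is not known from the sources used. A group that received the reagent alone is described in the labels and is not analysed here. HaCaT is 1 line grown in culture, and nothing in the labels says that the libraries of a group came from separate cultures, so the spread between them may be technical.

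Each connexin spans the membrane and assembles with others into a ring, the connexon, which docks to that of the next cell. GJA1 encodes Cx43, the most widely expressed connexin, present in keratinocytes of the lower epidermal layers. GJB2 and GJB6 encode Cx26 and Cx30, partners in the channels of the inner ear, where loss of GJB2 is a common cause of inherited deafness; inherited changes in either gene also cause skin disease. GJB5 encodes Cx31.1, an epidermal connexin, and GJC1 encodes Cx45, known best from the heart and vessel wall of the mouse. The product of PSENEN is part of γ-secretase, a protease that cuts Notch receptors and other proteins within the membrane, and inherited loss of the gene is a cause of familial acne inversa.

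The promoters of GJA1 and GJB2 are shown because these are the 2 of the 5 genes whose libraries did not overlap between the siRNAs. RefSeq (GRCh38.p14) gave a promoter window, 250 bases before to 50 bases after the start, for 3 of the 5 genes: GJA1, GJB2 and GJB6. Capitals mark every match, on either strand, to 1 of 4 motifs searched: the GC box GGGCGG, the AP-1 site TGANTCA, the core TGGGAA bound by RBPJ, the DNA-binding partner of cleaved Notch, and the TATA box TATAAA. The GJA1 window is chr6:121435396-121435695 on the plus strand and that of GJB2 is chr13:20192889-20193188 on the minus strand.
GJA1 promoter: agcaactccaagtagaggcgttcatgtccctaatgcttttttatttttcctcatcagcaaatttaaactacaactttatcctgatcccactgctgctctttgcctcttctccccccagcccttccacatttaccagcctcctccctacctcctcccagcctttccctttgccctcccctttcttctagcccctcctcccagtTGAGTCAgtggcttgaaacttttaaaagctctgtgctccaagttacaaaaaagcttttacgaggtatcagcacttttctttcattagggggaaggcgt
GJB2 promoter: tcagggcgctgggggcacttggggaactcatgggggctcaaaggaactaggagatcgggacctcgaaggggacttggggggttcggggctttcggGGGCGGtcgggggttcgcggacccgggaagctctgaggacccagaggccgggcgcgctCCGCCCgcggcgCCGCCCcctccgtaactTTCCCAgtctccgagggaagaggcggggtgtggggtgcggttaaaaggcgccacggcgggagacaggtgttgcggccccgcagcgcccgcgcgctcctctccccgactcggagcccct

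The GJA1 window held 1 AP-1 match, TGAGTCA, that began 48 bases before the start, and no match to the other motifs. The GJB2 window held 3 GC boxes, at -155, -97 and -85 from the start, and 1 TGGGAA match at -68, and no AP-1 or TATA match. No 2 of these matches overlapped. The GC box letters were in 44.6% of 27305 RefSeq promoter windows of the same length, AP-1 in 7.76%, TGGGAA in 24.3% and TATAAA in 12%. GJB2 had 71.7% G and C with 33 CpG pairs, against 47% and 3 pairs in GJA1. The median over all windows was 58.3%. GJB6 had 51.3%, 2 CpG pairs and none of the 4 motifs. The matches are letters in a window, and neither binding nor methylation was measured. In the deposited files the main transcripts began 46 bases (GJA1) and 40 bases (GJB2) downstream of the RefSeq start.

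PSENEN, the gene the siRNA was made against, had 1.75, 2.08 and 1.5 TPM with PSENEN siRNA and 6.58, 8.85 and 6.55 TPM with mismatch siRNA. It fell by 1.58 on the log2(TPM + 1) scale, with an SE of 0.18 (limma, Benjamini-Hochberg adjusted p = 0.0471). PSENEN was lower in all 19 alternative settings run and missed the threshold in 10 of them. Over 15647 genes tested, 64 passed an adjusted p of 0.05, 20 (0.128%) higher and 44 (0.281%) lower with PSENEN siRNA, and leaving out any 1 of the 6 libraries gave 7 to 16. With mismatch siRNA library 1, 2 or 3 left out, 7 of 10, 9 of 13 and 7 of 9 calls were higher. The estimated aligned sequence was 9.16 to 11.9 gigabases with PSENEN siRNA and 11.5 to 15.6 gigabases with mismatch siRNA. All 9 keratinocyte markers had values, among them KRT5 and TP63, and the melanocyte genes MLANA, TYR, TYRP1 and DCT and the leukocyte gene PTPRC had none. The 3 of 7 fibroblast markers with values summed to 0.460 to 1.01 TPM with PSENEN siRNA and 1.18 to 1.47 TPM with mismatch siRNA. Of 5 leukocyte markers CD68 alone had values, at 2.50 to 6.19 TPM with PSENEN siRNA and 0.486 to 4.36 TPM with mismatch siRNA, and melanocyte and endothelial markers summed to at most 0.545 TPM.

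GJA1 and GJB2 RNA were at 54.6% and 55.9% of the mismatch siRNA level in PSENEN siRNA cells, and GJB5 and GJC1 RNA overlapped between the siRNAs. GJB6 had no transcript line in any library. These values are a description without a test, since the genes were chosen on this contrast. None of the 4 measured connexins passed the threshold over the whole table, where 0.409% of genes did. The libraries of both siRNAs did not overlap for GJA1 and GJB2, both lower, and this was so, in the lower direction, for 13.7% of all genes tested (21.9% in either direction).

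GJA1 (ENSG00000152661) is on chromosome 6, and its 1 listed transcript, ENST00000282561, lay on the plus strand at 121435692 to 121449727. Its level was 10.9, 9.77 and 11.2 TPM with PSENEN siRNA and 18.8, 19.6 and 20.1 TPM with mismatch siRNA. Every PSENEN siRNA library was below every mismatch siRNA library, and the libraries within each group lay close together. The means were 10.6 ± 0.763 TPM with PSENEN siRNA and 19.5 ± 0.658 TPM with mismatch siRNA (SD, n = 3 each). The log2(TPM + 1) difference was -0.82 with an SE of 0.11 (95% interval -1.09 to -0.54). Of all genes tested, 4.04% had a lower difference.

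GJB2 (ENSG00000165474) is on the minus strand of chromosome 13, and its main transcript spans 20187470 to 20192898. It had 22.9, 19.8 and 26.8 TPM with PSENEN siRNA and 31.9, 45.7 and 46.5 TPM with mismatch siRNA. The groups did not overlap, with the first mismatch siRNA library between the PSENEN siRNA libraries and the other mismatch siRNA libraries. The means were 23.1 ± 3.50 TPM with PSENEN siRNA and 41.4 ± 8.21 TPM with mismatch siRNA. The log2(TPM + 1) difference was -0.80 with an SE of 0.19 (95% interval -1.27 to -0.34), and 4.22% of genes tested had a lower one. Leaving out 1 library at a time gave GJB2 differences of -0.98 to -0.70.

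GJB5 (ENSG00000189280) lay on the plus strand of chromosome 1 at 34755047 to 34758512, with 1 listed transcript, ENST00000338513. Its level was 32.5, 31.9 and 34.7 TPM with PSENEN siRNA and 36.1, 28.6 and 26.9 TPM with mismatch siRNA. The mismatch siRNA libraries lay on both sides of the PSENEN siRNA libraries. The means were 33.0 ± 1.5 TPM with PSENEN siRNA and 30.5 ± 4.93 TPM with mismatch siRNA, and the log2(TPM + 1) difference was 0.12 with an SE of 0.14 (95% interval -0.21 to 0.46).

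GJC1 (ENSG00000182963), on the minus strand of chromosome 17 between 44798448 and 44830816, had 13.2, 9.11 and 9.44 TPM with PSENEN siRNA and 11.9, 13.5 and 10.3 TPM with mismatch siRNA. The first PSENEN siRNA library was above 2 of the 3 mismatch siRNA libraries, and the other PSENEN siRNA libraries were below all of them. The means were 10.6 ± 2.25 TPM with PSENEN siRNA and 11.9 ± 1.61 TPM with mismatch siRNA, with a log2(TPM + 1) difference of -0.17 and an SE of 0.18 (95% interval -0.62 to 0.28). Computed from assembled bases in place of TPM, the GJC1 log2 difference was -0.43 with an SE of 0.36.

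GJB6 (ENSG00000121742) lies on the same strand of chromosome 13 as GJB2, at 20221962 to 20232395 in GENCODE 29. No library of either siRNA listed a GJB6 transcript, so it has no level, no difference and no error. Gene levels of other connexins were listed down to 0.0842 TPM in a library, for GJD3 with mismatch siRNA. In the first mismatch siRNA library, 1 unnamed transcript without a strand, at 0.626 TPM, lay over an annotated GJB6 exon, and in the other 5 libraries none did. Without counts, no upper limit can be set for GJB6.

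**Figure D1:**
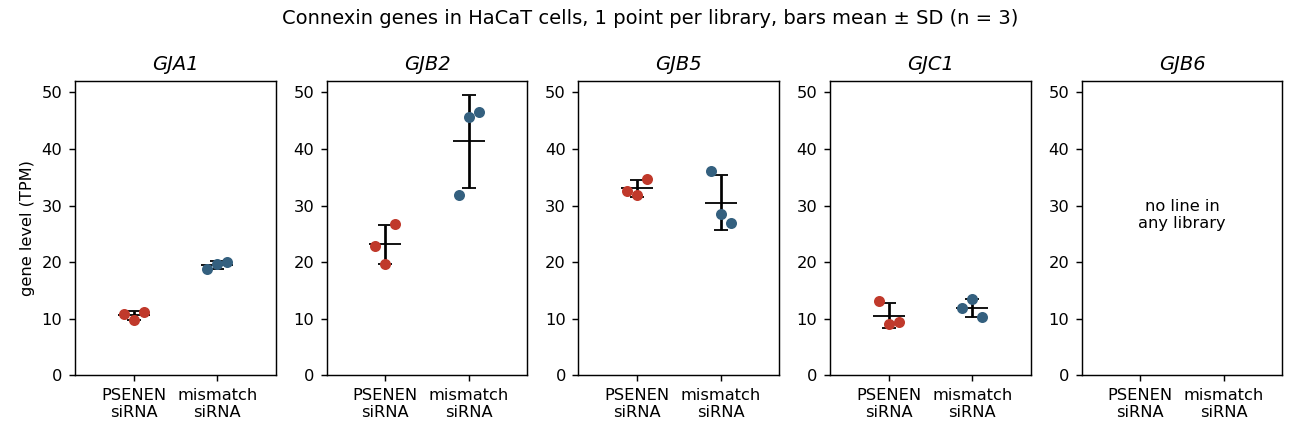
Gene levels in TPM of the 5 connexins in each library (points), with the mean ± SD of 3 libraries; PSENEN siRNA is red and mismatch siRNA is blue. All 3 red points lie below all 3 blue points for GJA1 and GJB2, while GJB5 and GJC1 overlap and GJB6 has no line.

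The order of the levels differed between the siRNAs at its upper end. In PSENEN siRNA cells GJB5 was the highest of the 4, at 31.9 to 34.7 TPM, above GJB2 at 19.8 to 26.8 TPM without overlap. GJA1 and GJC1, at 9.77 to 11.2 and 9.11 to 13.2 TPM, were below both and overlapped each other. In mismatch siRNA cells GJB2, at 31.9 to 46.5 TPM, overlapped GJB5, at 26.9 to 36.1 TPM. GJA1, at 18.8 to 20.1 TPM, was then above GJC1, at 10.3 to 13.5 TPM, without overlap. GJB2 and GJB5 each had a mean level above that of more than 85% of the genes tested, and GJA1 and GJC1 above 68.8% and 60.4% of them.

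Within a library, ratios between connexins do not depend on the scaling of that library. GJB2 over GJB5 was 0.703, 0.620 and 0.770 with PSENEN siRNA and 0.883, 1.60 and 1.73 with mismatch siRNA. GJB5 RNA thus exceeded GJB2 RNA in every PSENEN siRNA library and in 1 of 3 mismatch siRNA libraries. GJA1 over GJB5 was 0.322 ± 0.0144 with PSENEN siRNA and 0.651 ± 0.118 with mismatch siRNA. For the 2 connexins that were lower with PSENEN siRNA, the ratio overlapped: GJB2 over GJA1 was 2.17 ± 0.192 with PSENEN siRNA and 2.12 ± 0.361 with mismatch siRNA.

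The 4 measured connexins summed to 79.5, 70.5 and 82.1 TPM with PSENEN siRNA and to 98.7, 107 and 104 TPM with mismatch siRNA. The sums did not overlap, but they include GJA1 and GJB2, chosen with their lower values known, so this is no separate result. Of this total, GJA1 made up 13.7% ± 0.103 with PSENEN siRNA and 18.9% ± 0.562 with mismatch siRNA, without overlap. The GJB2 share was 29.8% ± 2.43 with PSENEN siRNA and 39.9% ± 6.65 with mismatch siRNA, and the highest PSENEN siRNA library, at 32.6%, was just above the lowest mismatch siRNA library, at 32.3%. The GJB5 share was higher without overlap, at 42.8% ± 2.17 with PSENEN siRNA and 29.7% ± 6.00 with mismatch siRNA, while its own level overlapped. GJC1 made up 13.7% ± 2.61 with PSENEN siRNA and 11.5% ± 1.40 with mismatch siRNA, and these overlapped.

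**Figure D2:**
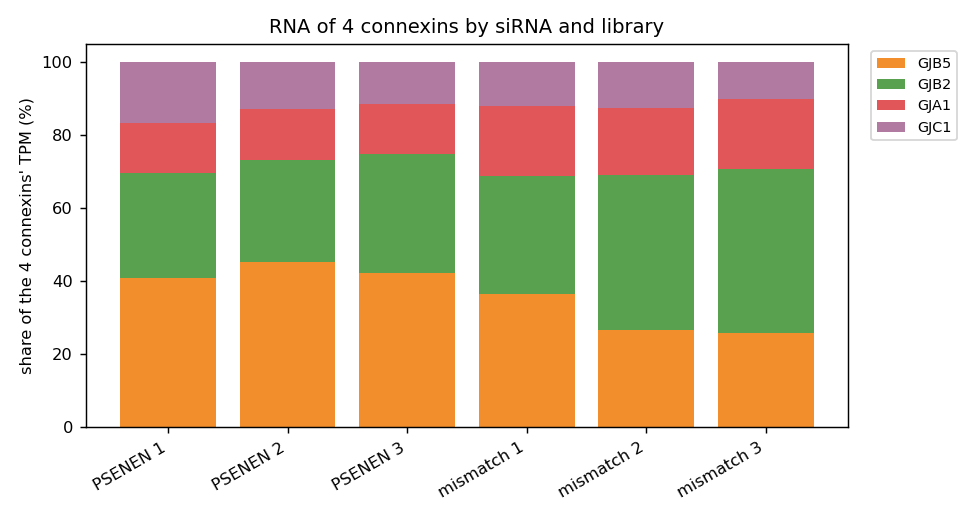
Share of the summed TPM of GJB5, GJB2, GJA1 and GJC1 (vertical axis, %) held by each gene, 1 bar per library, with the 3 PSENEN siRNA libraries left of the 3 mismatch siRNA libraries. The GJA1 share averages 13.7% in the PSENEN siRNA bars and 18.9% in the mismatch siRNA bars, and the GJB5 share 42.8% in the PSENEN siRNA bars and 29.7% in the mismatch siRNA bars.

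Coverage of single exons was read from the main transcript of each gene alone. It is the coverage listed under that transcript, so it is no measure independent of the transcript's TPM. Other forms are left out, and for GJC1 the main form held 31.1% to 91.8% of the gene. In each of the 4 measured connexins the whole coding sequence of the main transcript lies in its last exon, and the exons before it are untranslated. The GJA1 coding sequence has 382 codons, that of GJB2 226, that of GJB5 273 and that of GJC1 396. Exon coverage is given as the mean read depth per base for each gigabase of aligned sequence in that library.

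For GJA1, coverage of exon 1 (121435692 to 121435832) was 2.11 ± 0.332 with PSENEN siRNA and 4.09 ± 0.251 with mismatch siRNA, and that of exon 2 (121446832 to 121449727) was 4.04 ± 0.373 with PSENEN siRNA and 7.02 ± 0.365 with mismatch siRNA. The PSENEN siRNA means were 51.6% and 57.6% of the others, so the untranslated first exon and the coding exon were lower to a like degree, without overlap in either. For GJB2, exon 1 (20192783 to 20192898) had 1.42 ± 0.129 with PSENEN siRNA and 2.66 ± 0.956 with mismatch siRNA. GJB2 exon 2 (20187470 to 20189603) had 7.64 ± 1.84 with PSENEN siRNA and 13.5 ± 2.53 with mismatch siRNA. Both GJB2 exons were lower without overlap, at 53.5% and 56.7% of the mismatch siRNA mean. In exon 1 the first mismatch siRNA library, at 1.56, lay next to the highest PSENEN siRNA library, at 1.51.

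Both exons of GJB5 and all 3 of GJC1 overlapped between the siRNAs. The coding exon of GJB5 had 13.2 ± 0.831 with PSENEN siRNA and 11.5 ± 1.61 with mismatch siRNA, and that of GJC1 had 2.73 ± 0.842 with PSENEN siRNA and 2.93 ± 0.938 with mismatch siRNA. The first exon was covered less than the last in every library and every one of these genes. Its coverage was 43.4% to 68.8% of that of the last exon for GJA1, 14.7% to 21.8% for GJB2, 33.8% to 44.0% for GJB5 and 1.96% to 16.9% for GJC1.

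**Figure D3:**
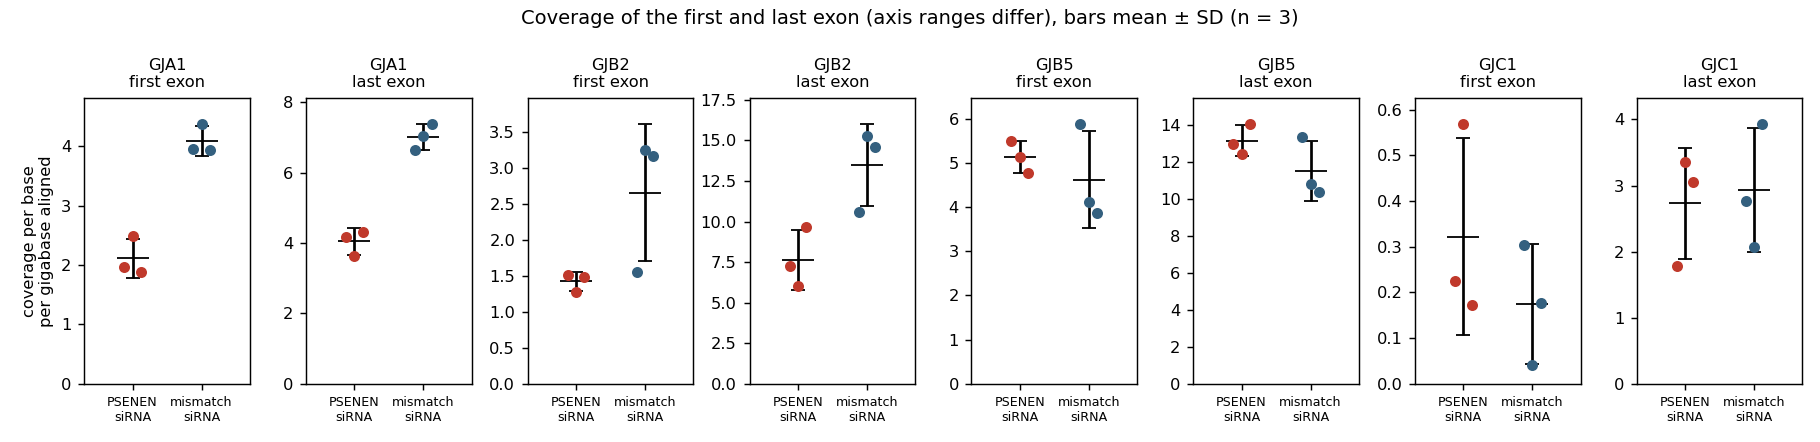
Coverage per base for each gigabase of aligned sequence, in the first and last exon of the main transcript of 4 connexins; points are libraries, bars are mean ± SD (n = 3), and axis ranges differ between panels. Both GJA1 exons and both GJB2 exons lie lower in PSENEN siRNA libraries without overlap, and those of GJB5 and GJC1 overlap.

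GJA1 and GJB5 had 1 listed transcript each, so their gene level is that of the transcript. GJB2 had 2: ENST00000382848, with 2 exons, and ENST00000382844, with 1 exon that extends from the coding exon into the intron upstream of it. The 2-exon form was 18.6, 15.8 and 24.5 TPM with PSENEN siRNA and 29.2, 41.6 and 38.9 TPM with mismatch siRNA. The 1-exon form was 4.23, 3.94 and 2.20 TPM with PSENEN siRNA and 2.72, 4.11 and 7.62 TPM with mismatch siRNA, and these overlapped. The 2-exon form made up 84.4% ± 6.38 of GJB2 with PSENEN siRNA and 88.7% ± 4.40 with mismatch siRNA (exact two-sided permutation p = 0.4, n = 3 each; the smallest p that 3 against 3 allow is 0.1).

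GJC1 had 7 listed transcripts, and which of them carried the TPM differed from library to library within each siRNA. ENST00000592524 had 4.10, 8.06 and 7.20 TPM with PSENEN siRNA and 7.16, 4.97 and 9.47 TPM with mismatch siRNA. It made up 31.1%, 88.5% and 76.2% of GJC1 with PSENEN siRNA and 60.4%, 36.7% and 91.8% with mismatch siRNA (exact two-sided permutation p = 1, n = 3 each). The longest form, ENST00000426548, of 7640 bases, was listed in the first mismatch siRNA library alone, at 4.41 TPM. The short forms ENST00000586347 and ENST00000586267, of 545 and 478 bases, were highest in the first PSENEN siRNA library, at 3.68 and 1.95 TPM, and in the second mismatch siRNA library, at 3.43 and 2.38 TPM. Since TPM divides by length, the GJC1 sum depends on how reads were assigned among forms of such different lengths.

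**Figure D4:**
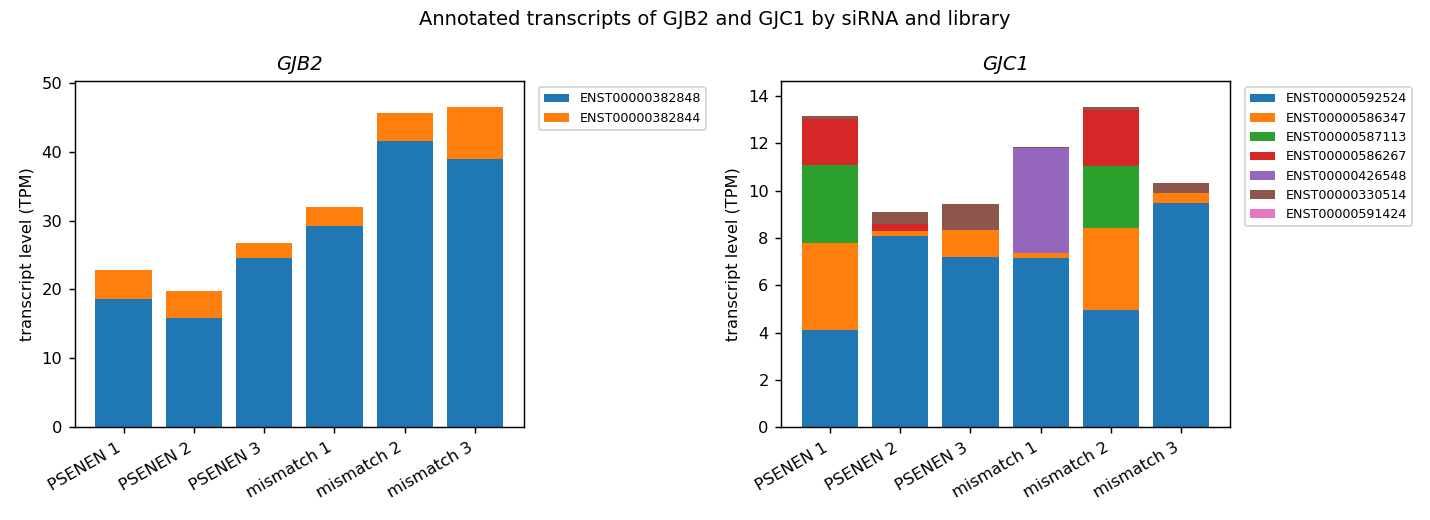
TPM of each annotated transcript (stacked colours) of GJB2 and GJC1 by library, with PSENEN siRNA libraries left of mismatch siRNA libraries. The 2-exon GJB2 form leads in all 6 libraries, while the main GJC1 form ranges from 31.1% to 91.8% of its gene.

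Reads shared with other genes touch GJA1 most. Of the 31-base words in the annotated GJA1 transcripts, 11.5% also occur in GJA1P1, its processed pseudogene, so reads could be placed in either. GJA1P1 was listed at 2.47 ± 0.692 TPM with PSENEN siRNA and 2.95 ± 0.440 TPM with mismatch siRNA, and its libraries overlapped. With GJA1 and GJA1P1 summed, a choice made after the data were seen, the log2 difference was -0.73. GJB2 and GJB6 shared no such word with another gene, GJB5 shared 0.755% of them and GJC1 7.84%. The sources used here do not say whether the libraries kept strand. In the files no other transcript overlapped a GJB5 exon.

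The word TGGTTCT was singled out by an earlier search over these same libraries, as a possible seed match of the siRNA, so it is no independent evidence here. The siRNA sequence is not in the sources used here. The word is in the coding sequence of PSENEN and in the 3′ UTR of GJA1 and of GJB2. It is not in the longest annotated 3′ UTR of GJB5, GJB6 or GJC1. The sites below, with 10 bases on either side and the word in capitals, are read from GENCODE 29 transcripts (GRCh38) and show how far the match to PSENEN reaches. They lie at chr19:35746453-35746479 (plus strand, PSENEN), chr6:121448305-121448331 (plus strand, GJA1) and chr13:20188446-20188472 (minus strand, GJB2).
PSENEN: caacatcttcTGGTTCTtccgagaggc
GJA1: cccctaagaaTGGTTCTgtgtatgtga
GJB2: aggtgaacatTGGTTCTttcatttgct

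The unbroken match to PSENEN was 7 bases long for GJA1 and 8 for GJB2. Among tested protein-coding genes with an annotated 3′ UTR, 18.1% of 10669 held the word, and of those with a longest 3′ UTR of 1000 to 2000 bases, as in GJA1 (1731 bases) and GJB2 (1438 bases), 15.4% of 2605 did. Without a limit on 3′ UTR length, it was in 20 of 34 protein-coding genes called lower and 1 of 8 called higher. The word was found in these same libraries, so nothing is read from these counts. The part of the word in the GJA1 and GJB2 values was not tested.

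Several keratinocyte markers had lower values in the same libraries as GJA1 and GJB2. Of 9 markers, 6 were lower with PSENEN siRNA without overlap, as were 13.7% of all genes tested. Of the 9, 0 passed the limma test and 6 had an unadjusted p under 0.05, as did 13% of all genes. Their summed level was 3543 to 4390 TPM with PSENEN siRNA and 3837 to 8307 TPM with mismatch siRNA. Beside 54.6% of all genes tested, 7 of the 9 differences were negative, and 2 were positive. The positive ones were KRT14, a basal keratin, with 1430 ± 123 TPM with PSENEN siRNA and 1578 ± 2039 TPM with mismatch siRNA (log2 difference 0.97, although the mean was lower, since the mismatch siRNA libraries ranged over 146 to 3913 TPM), and PERP, with 124.3 ± 4.09 TPM with PSENEN siRNA and 123.7 ± 15.1 TPM with mismatch siRNA, and both overlapped. TP63, the transcription factor of basal keratinocytes, had 58.6 ± 2.32 TPM with PSENEN siRNA and 79.3 ± 2.60 TPM with mismatch siRNA (limma, adjusted p = 0.123). KRT5, a keratin of the basal layer, had 1177 ± 210 TPM with PSENEN siRNA and 2099 ± 618 TPM with mismatch siRNA (limma, adjusted p = 0.282). Fewer cells of a type and less RNA per cell cannot be told apart in such bulk RNA, and the part of these markers in the connexin values was not tested. The 4 markers named were chosen after their values were seen.

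Of 15 other connexin and pannexin genes examined, 5 had values and 3 passed the filter on low values. None of the 3 passed the limma test and 2 had an unadjusted p under 0.05, as did 13% of all genes tested. Of these 2, PANX2 passed the filter only through the group where it is high. The median log2 difference of the 3 was 0.56, that of GJA9, beside -0.04 for all genes tested. GJA9, another connexin gene, had 1.47 ± 0.182 TPM with PSENEN siRNA and 0.747 ± 0.655 TPM with mismatch siRNA, and its libraries overlapped (limma, adjusted p = 0.466). In the annotation 3 other genes overlap GJA9, and their part in its values was not tested.

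PANX1 encodes a channel that releases ATP from cells and, unlike connexins, does not usually join cells. It had 8.81, 6.50 and 9.23 TPM with PSENEN siRNA and 27.5, 27.2 and 11.7 TPM with mismatch siRNA (log2 difference -1.25, limma adjusted p = 0.229). The third mismatch siRNA library lay near the PSENEN siRNA libraries. PANX1 also holds TGGTTCT in its 3′ UTR. PANX2, of the same family, had 3.91, 4.32 and 2.51 TPM with PSENEN siRNA and 0.616, 0 and 0.399 TPM with mismatch siRNA (log2 difference 1.78, limma adjusted p = 0.0744). PANX2 passed the filter on low values only through the PSENEN siRNA libraries, where it is high, so nothing is read from its p. GJA3 and GJD3 had 0 to 0.383 TPM and were not tested. No library listed GJA4, GJA5, GJA10, GJB1, GJB7, GJC3, GJD2, GJD4, GJE1 or PANX3.

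**Figure D5:**
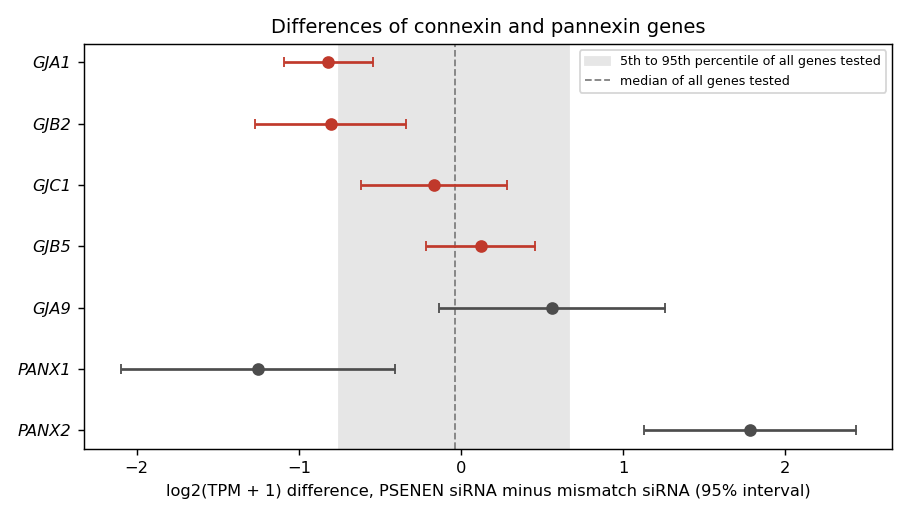
Log2(TPM + 1) difference, PSENEN siRNA minus mismatch siRNA, with its 95% interval, for the 4 measured connexins (red) and 3 other connexin and pannexin genes (grey); the band spans the 5th to 95th percentile of all genes tested and the dashed line is their median, -0.04. GJA1 at -0.82, GJB2 at -0.80 and PANX1 at -1.25 lie below the band and PANX2 at 1.78 above it. PANX2 passed the filter on low values only through the PSENEN siRNA libraries.

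Genes that act on connexins, join keratinocytes or lie in the regions of connexin loci were taken from 3 lists. Of 34 tested genes for proteins that bind connexins or serve their transport and turnover, none passed the limma test and the median difference was -0.24. Of the 34, 8 had an unadjusted p under 0.05, beside 13% of all genes tested. A negative difference was seen in 25 of the 34, beside 54.6% of all genes tested. Without overlap, 10 of the 34 were lower with PSENEN siRNA and 0 higher, beside 13.7% and 8.21% of all genes tested. SQSTM1, an autophagy receptor gene, overlapped between the siRNAs in the main fit (log2 difference 0.70, SE 0.56, limma adjusted p = 0.641). It passed in the higher direction when unnamed transcripts were added by a shared intron (log2 difference 0.93, limma adjusted p = 0.0415) or by locus and strand (0.93, 0.0442). SQSTM1 was named after its values were seen. TUBB, a tubulin and the most abundant of the 34, had 583 ± 34.5 TPM with PSENEN siRNA and 634 ± 50.1 TPM with mismatch siRNA (limma, adjusted p = 0.637). Of 11 tested adherens junction genes, whose proteins hold keratinocytes together, none passed and the median was -0.14. Of the 11, 2 had an unadjusted p under 0.05 (13% of all genes) and 8 were negative (54.6% of all genes). Without overlap, 4 of the 11 were lower (13.7% of all genes) and 0 higher (8.21%). JUP (plakoglobin) had 358 ± 15.5 TPM with PSENEN siRNA and 425 ± 67.4 TPM with mismatch siRNA (limma, adjusted p = 0.491).

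Of 6 tested genes listed for the regions of the connexin loci, none passed and the median was -0.02. Of the 6, 1 had an unadjusted p under 0.05 (13% of all genes) and 3 were negative (54.6% of all genes). HSF2 (from 122399546) and SERINC1 (from 122443354) are on chromosome 6, well apart from GJA1, which ends at 121449727. Their differences were near 0: HSF2 had 7.60 ± 0.484 TPM with PSENEN siRNA and 7.18 ± 0.287 TPM with mismatch siRNA, and SERINC1 had 34.7 ± 2.53 TPM with PSENEN siRNA and 37.6 ± 1.91 TPM with mismatch siRNA. These 2 were chosen after their values were seen. EFTUD2, a splicing factor gene beside GJC1 and the most abundant of the list, had 73.4 ± 5.36 TPM with PSENEN siRNA and 55.2 ± 10.3 TPM with mismatch siRNA, higher without overlap, as were 8.21% of all genes (limma, adjusted p = 0.346). CCDC103, of the same list, was lower without overlap, as were 13.7% of all genes. It had 0.883 ± 0.770 TPM with PSENEN siRNA and 1.69 ± 0.0975 TPM with mismatch siRNA (limma, adjusted p = 0.514), and was named after its values were seen. The other 4 overlapped.

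Across the 6 libraries, which hold both siRNAs, the log2 levels of GJA1 and GJB2 had a Pearson r of 0.93, GJB2 and GJB5 one of -0.63, and GJA1 and GJB5 one of -0.44. Among 8292 protein-coding genes with a mean of at least 5 TPM, the levels most like GJA1 were those of ATP5SL (r = 0.997) and C1GALT1C1 (0.995). ATP5SL had 5.48 ± 0.370 TPM with PSENEN siRNA and 13.8 ± 0.820 TPM with mismatch siRNA. Closest to GJB2 were HEXIM1 (r = 0.995) and GAS6 (0.993), to GJB5 AIMP2 (0.996) and PANK4 (0.992), and to GJC1 ATP5B (0.984) and FAM32A (0.965). These are descriptions over 6 libraries that share a cell line.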

How the data were processed

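Total RNA of 6 HaCaT libraries was analysed. The deposited files list transcripts assembled per library, in StringTie format, with coverage, FPKM and TPM for each, computed by the authors, per the file headers. They hold no read counts. Mouse builds (mm8, mm9) and Bowtie 0.12.2 stand in the submitters' processing notes, although the identifiers are human. For these files, aligner, annotation release and strandedness were not given in the sources used here. Transcript positions in the files equalled those of GENCODE 29 for 98.1% of reference transcripts.

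TPM was summed per named gene over reference transcripts. Genes that reached 1 TPM in 3 or more libraries were fitted on log2(TPM + 1) with limma 3.58.1 (intensity trend, group only, R 4.3.3) and called where the p adjusted by Benjamini-Hochberg was under 0.05. A fold on this scale understates the change of low genes. Depth was estimated from the ratio of coverage to FPKM. The steps were tested on simulated data. The genes described, the lists and the alternatives (pseudocount, filter, unit, scaling, model, replicate block, transcripts summed, each library left out) were chosen with earlier results of these data known. Genes named are the 5 connexins, PSENEN, the listed connexins and pannexins, the most abundant gene of each other list where none was called, and for each measured connexin the 2 genes most like it; others (markers, pseudogene, SQSTM1, CCDC103, HSF2, SERINC1) were named after their values were seen. No pairing by replicate number was seen, and what the numbers mark is not known from the sources used. The lists were shortened after the data were seen, since some genes are not reported here, and connexin shares are of the 4 measured connexins.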

Additional observations from a re-analysis of the deposited data

Results flagged for a closer look

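GJC1 had signal listed under transcripts without a reference name, which the comparisons left out. In the first PSENEN siRNA library an assembled transcript without a reference name, with 2 exons on the GJC1 strand (chromosome 17, 44798517 to 44804966), was listed at 0.938 TPM. In the second PSENEN siRNA library another, with 3 exons and an intron shared with GJC1 (44798474 to 44807830), was listed at 0.921 TPM. The third PSENEN siRNA library and all 3 mismatch siRNA libraries had 0 such TPM over GJC1 exons. They were picked out because no mismatch siRNA library listed one, and the difference between the siRNAs was not tested. Annotated forms that reach 44798448 cover the same region. ENST00000426548 had 4.41 TPM in the first mismatch siRNA library. ENST00000587113 had 2.63 TPM in the second mismatch siRNA library and 3.29 TPM in the first PSENEN siRNA library. The values of 0 thus concern unnamed transcripts alone, not all signal in the region. With transcripts that share an intron added, the log2 differences of the 4 measured connexins kept their signs.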

How the results depend on the processing

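Over all settings run, the log2 difference was -0.87 to -0.65 for GJA1, -0.98 to -0.69 for GJB2, 0.04 to 0.24 for GJB5 and -0.43 to -0.08 for GJC1, with no change of sign; GJB6 had no value in any. GJA1 moved by more than its replicate spread with a pseudocount of 5 (-0.65), FPKM (-0.67) and GJA1P1 added (-0.73), and GJC1 with assembled bases (-0.43). The count of the 4 past the whole-table threshold was 0, and 1 with a filter of 5 TPM or with intron-sharing transcripts added; since the genes were chosen on this contrast, nothing is read from it. With intron-sharing or with all same-strand transcripts added, 1 connexin-binding gene, SQSTM1, passed. The count of all genes called, 64, was 28 with a pseudocount of 0.1, 1 with the replicate block and 7 to 16 without 1 library. The share of calls that were higher was 31.2%, against 42.9% with median-of-ratios scaling and 46.0% with FPKM, 20.9% with a filter of 5 TPM and 0% with the replicate block (1 gene). Without PSENEN siRNA library 1, 2 or 3 it was 12.5%, 42.9% and 21.4%, and with mismatch siRNA library 1, 2 or 3 left out 70%, 69.2% and 77.8%, so most calls were then higher. PSENEN stayed lower but missed the threshold with a pseudocount of 0.1 (-1.98, adjusted p = 0.0542), no filter (-1.58, 0.0725), 5 TPM (-1.58, 0.0544), the replicate block (-1.58, 0.306) and without 1 library (-1.66 to -1.45, 0.110 to 0.155; all by limma). Same-numbered libraries had deviations correlated at -0.0489, 6.5e-05 and -0.0142, so no pairing by number was seen. With 3 libraries in each group this cannot exclude a shared culture or day. The difference in share of the main transcript was -7.91 to -2.05 percentage points for GJB2 without 1 library. For GJC1, 2.32 points with all libraries, it was -10.8 to 19.4, and turned to -9.28 and -3.15 without PSENEN siRNA library 2 or 3 and to -10.8 without mismatch siRNA library 2; the cause was not tested. With no counts in the files, the depth behind each level is known only as a total, and the absence of GJB6 cannot be given a limit.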
